A study of Mus musculus with 9 samples.

Results

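The store-operated calcium entry and calcium channel genes described here are Stim1, Stim2, Orai1, Orai2, Orai3, Itpr1, Trpv2, Trpm2, Trpm7 and Piezo1. They were taken by symbol, as 10 of the 20926 genes in the deposited blood table, and all 10 passed the filter on low values. Blood RNA came from 9 male DBA/1 mice, aged 7 weeks when they were assigned, with 1 library per mouse and 3 mice per group. The Ctrl mice served as controls. Mice of the CIA group carried collagen-induced arthritis, a model of rheumatoid arthritis raised by injecting chick type II collagen in adjuvant. Those of the CIA+THz group also carried it and received 0.1 THz waves on the swollen joint for 30 min a day over 14 days under isoflurane. The methods describe isoflurane for the irradiated mice, so that anesthesia and irradiation cannot be told apart in any comparison with the CIA+THz group.

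In leukocytes, calcium leaves the endoplasmic reticulum through inositol trisphosphate (IP3) receptors such as Itpr1. STIM proteins sense the emptied store and open ORAI channels in the plasma membrane, and the calcium that enters drives calcineurin and NFAT in lymphocytes and secretion and oxidant production in myeloid cells. TRP channels and the stretch-gated channel Piezo1 carry calcium and other cations in response to heat, oxidants, lipids or mechanical force.

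Levels are given as rescaled FPKM, the deposited value (fragments scaled for transcript length and library total) divided by 1 factor per library, so that levels of different genes can be set side by side. A log2 fold change is the difference of the mean log2(rescaled FPKM + 0.1) between groups. Each test is a limma fit. Genes are called at an unadjusted p under 0.05, and for pairs of groups a fold limit (log2 fold change beyond 0.67 in either direction) is added and reported separately. Both thresholds are those of the study's methods. A call here means the unadjusted p alone, and the p printed for a gene is the Benjamini-Hochberg adjusted p over the 12366 genes tested. In bulk RNA a fall in the number of cells that carry a transcript and a fall in transcript per cell cannot be told apart.

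On GRCm38 (GENCODE M21, matched by symbol), Stim1 is at chr7:102267806-102437319 on the plus strand and Stim2 at chr5:53998499-54121057 on the plus strand. Orai1 is at chr5:123015074-123030456 on the plus strand, Orai2 at chr5:136147459-136170713 on the minus strand and Orai3 at chr7:127769815-127775150 on the plus strand. Itpr1 is at chr6:108213096-108551109 and Trpv2 at chr11:62574486-62600515, both on the plus strand. Trpm2 is at chr10:77907722-77970563, Trpm7 at chr2:126791565-126876230 and Piezo1 at chr8:122481698-122551329, all on the minus strand. Orai1 and Orai2 lie on the same chromosome as Stim2, and Orai3 on that of Stim1.

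The levels of these genes differed less between groups than between genes. Orai2 was the most abundant in every group, with means of 51.7, 51.9 and 52.5 rescaled FPKM in Ctrl, CIA and CIA+THz, and its mean over the 9 libraries lay above 90.2% of the genes tested. Trpm2 came next at 33.3, 30.5 and 25.7, and its range did not meet that of Orai2 in any group. Trpv2, Stim1, Orai1, Stim2 and Orai3 held the middle with means between 8.23 and 24.5 rescaled FPKM. Piezo1, Trpm7 and Itpr1 had the 3 lowest means in every group, between 3.12 and 7.18. In CIA the ranges of Piezo1 and Stim2 overlapped. Within the middle, neighbors in order of mean often overlapped: Trpv2 with Orai1 in Ctrl, Orai1 with Stim1 and Stim1 with Orai3 in CIA, and Trpm2 with Trpv2, Trpv2 with Stim1, Orai1 with Stim2 and Stim2 with Orai3 in CIA+THz. Stim2 was the gene next below Orai3 in CIA with no overlap between them, whereas in Ctrl Stim2 stood above Orai3, also with no overlap. Trpm7 was above Itpr1 without overlap in Ctrl and CIA+THz and overlapped it in CIA, where its mean was the lowest.

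Across the 3 groups, 5 of the 10 genes had an unadjusted p under 0.05, against 21.3% of all genes tested. They were Stim2 (adjusted p = 0.102), Trpv2 (adjusted p = 0.141), Orai3 (adjusted p = 0.142), Orai1 (adjusted p = 0.143) and Trpm7 (adjusted p = 0.204). None of the 10 had an adjusted p under 0.05, where 2.53% of all genes did. The 10 genes were chosen with earlier results of these data known. Neither this count of calls nor those between pairs of groups can therefore be read as more than usual. Stim1 (adjusted p = 0.331), Trpm2 (adjusted p = 0.489), Piezo1 (adjusted p = 0.856), Itpr1 (adjusted p = 0.874) and Orai2 (adjusted p = 0.988) were not called. Leaving out CIA replicate 2 brought the count to 3, without Orai3 and Trpm7, and with FPKM as deposited it was also 3, without Orai1 and Trpv2. Trpm7 also lost its call without Ctrl replicate 1, Ctrl replicate 3, CIA replicate 3 or CIA+THz replicate 2, Orai1 lost its call without CIA+THz replicate 3, and Trpm2 gained one without Ctrl replicate 2.

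**Figure D1:**
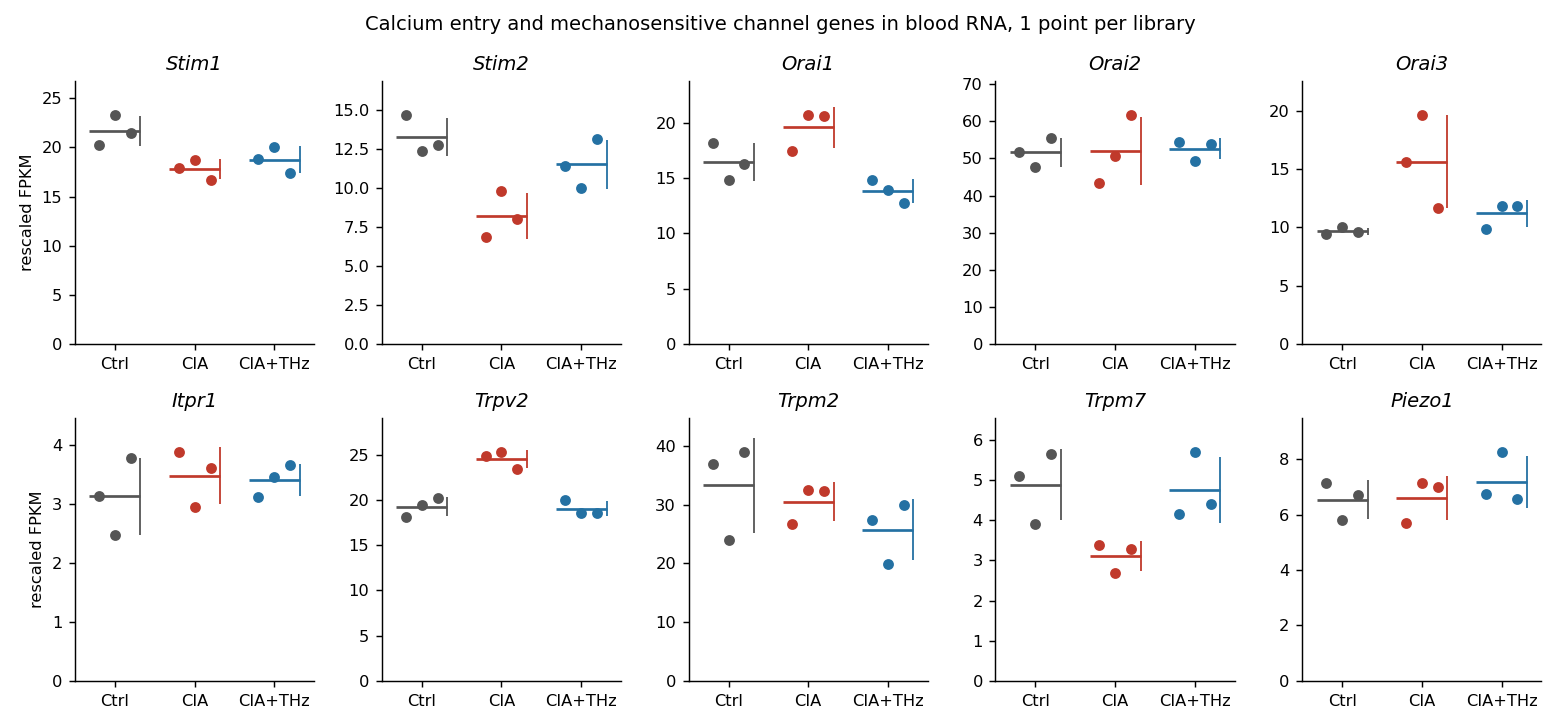
Rescaled FPKM of each gene (y axis, from 0) in the Ctrl, CIA and CIA+THz groups (x axis), with 1 point per library, a horizontal line at the group mean and a vertical line of 1 SD to each side. Stim2 and Trpm7 are lowest in the CIA libraries, Trpv2 is highest there, and Orai2, Itpr1 and Piezo1 overlap in all 3 groups.

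The promoter letters of the 4 genes called between CIA and Ctrl are shown to set the genes that were lower in CIA (Stim2, Trpm7) beside those that were higher (Orai3, Trpv2). Each run is the 250 bases before the RefSeq start on the gene's own strand, on GRCm38.p6, and 9 of the 10 genes were matched in that table, all but Itpr1. The Stim2 window is chr5:53998273-53998522 on the plus strand, that of Trpm7 is chr2:126876262-126876511 on the minus strand, that of Orai3 is chr7:127769565-127769814 on the plus strand, and that of Trpv2, whose first of 3 listed starts is shown, is chr11:62574236-62574485 on the plus strand. Capitals mark, on either strand, GGGCGG (the GC box), CCAAT (the CCAAT box), TATAAA (the TATA box), GAGGAAGT (an ETS factor sequence), CACGTG (an E-box) and GGAAAA (the core of NFAT sites). These 6 were chosen after the promoters had been read, and none of the marked stretches overlap in the 4 windows.
Stim2: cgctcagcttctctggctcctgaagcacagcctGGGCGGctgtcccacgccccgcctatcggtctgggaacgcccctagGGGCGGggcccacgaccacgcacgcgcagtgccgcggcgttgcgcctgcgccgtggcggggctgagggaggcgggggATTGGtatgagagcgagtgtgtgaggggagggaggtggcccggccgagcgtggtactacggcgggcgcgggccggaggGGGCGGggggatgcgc
Trpm7: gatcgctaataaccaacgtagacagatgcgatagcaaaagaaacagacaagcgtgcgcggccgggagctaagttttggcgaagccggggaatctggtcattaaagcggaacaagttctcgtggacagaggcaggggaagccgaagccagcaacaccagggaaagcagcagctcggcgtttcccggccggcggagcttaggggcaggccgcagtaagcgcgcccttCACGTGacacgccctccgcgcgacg
Orai3: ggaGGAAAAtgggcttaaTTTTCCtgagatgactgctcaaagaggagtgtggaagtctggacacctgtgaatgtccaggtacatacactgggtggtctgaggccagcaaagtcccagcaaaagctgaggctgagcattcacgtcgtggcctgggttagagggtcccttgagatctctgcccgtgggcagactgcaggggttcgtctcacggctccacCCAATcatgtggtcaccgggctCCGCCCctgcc
Trpv2: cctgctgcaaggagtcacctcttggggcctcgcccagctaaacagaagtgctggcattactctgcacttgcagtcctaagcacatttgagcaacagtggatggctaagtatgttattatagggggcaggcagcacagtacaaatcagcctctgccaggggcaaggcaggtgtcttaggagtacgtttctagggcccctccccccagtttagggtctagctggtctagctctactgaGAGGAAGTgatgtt
The Stim2 window held 3 GC boxes and 1 CCAAT box, the Trpm7 window 1 E-box, the Orai3 window 1 GC box, 1 CCAAT box and 2 NFAT cores, and the Trpv2 window 1 ETS sequence. Stim2 had 30 CpG dinucleotides and Trpm7 had 26, whereas Orai3 had 7 and Trpv2 had 2, against a median of 6 over the 32851 windows of the table. Of those windows, 32.7% hold a GC box, 33.8% a CCAAT box, 12.4% a TATA box, 6.02% the E-box, 20.4% the NFAT core and 2.44% the ETS sequence. Of the genes not called in this comparison, the Stim1 window had 31 CpG, that of Orai1 30, that of Piezo1 26, that of Orai2 17 and that of Trpm2 10. The third Trpv2 start, not shown, had 5 CpG and none of the 6 marked sequences. Bases after the Trpm7 start were found in no GENCODE transcript of that gene, unlike those of the other windows. A match of letters is not evidence of binding.

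The comparison of CIA with Ctrl asks how arthritis without irradiation relates to these transcripts. The methods describe no adjuvant injection for the Ctrl mice, so that arthritis and the injections of collagen in adjuvant cannot be told apart. Stim2 and Trpm7 were lower in CIA and Orai3 and Trpv2 were higher. These 4 of the 10 genes had p under 0.05, 2 higher and 2 lower, against 8.85% of all genes higher and 8.45% lower. Only Stim2 also passed the fold limit of the study, which 9.04% of all genes did together with the p, and it stayed under that limit at -0.66 with FPKM as deposited, -0.64 with a pseudocount of 1, -0.62 without Ctrl replicate 1 and -0.57 without CIA replicate 1. The 2 groups did not overlap for 5 of the 10 genes (those 4 and Stim1), against 23.5% of all genes. The median absolute log2 fold change was 0.27 over the 10 genes and 0.34 over all genes, and the smallest adjusted p was 0.140.

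Among the sensors, Stim2, the STIM protein that reacts to small store depletion and keeps resting calcium up, measured 14.7, 12.4 and 12.8 rescaled FPKM in the Ctrl libraries and 6.89, 9.80 and 8.02 in the CIA libraries. Every CIA library was below every Ctrl library. The mean was 13.3 ± 1.23 (SD, n = 3) in Ctrl and 8.23 ± 1.47 (SD, n = 3) in CIA, a log2 fold change of -0.69 (SE 0.18, adjusted p = 0.140). Stim1, the main STIM sensor of store-operated entry, measured 20.3, 23.3 and 21.5 in Ctrl and 17.9, 18.7 and 16.7 in CIA. Its groups did not overlap either, but its log2 fold change of -0.28 (95% confidence interval -0.57 to 0.006, adjusted p = 0.297) was not called. It was called without Ctrl replicate 1, at -0.33, and at the same -0.28 with no filter on low genes or with all 9 libraries in 1 fit.

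Among the ORAI pores, Orai3 measured 9.42, 9.995 and 9.62 rescaled FPKM in Ctrl and 15.6, 19.6 and 11.7 in CIA. The mean was 9.68 ± 0.293 (SD, n = 3) in Ctrl and 15.6 ± 3.96 (SD, n = 3) in CIA, where the libraries spread more widely. Its log2 fold change was 0.65 (SE 0.20, adjusted p = 0.190), under the fold limit, which it passed at 0.68 with FPKM as deposited or without Ctrl replicate 2 and at 0.85 without CIA replicate 3. Orai1, the main pore of the calcium release-activated channel, measured 18.2, 14.8 and 16.3 in Ctrl and 17.5, 20.7 and 20.6 in CIA. The groups overlapped through Ctrl replicate 1 and CIA replicate 1, and the log2 fold change of 0.25 (95% confidence interval -0.082 to 0.59, adjusted p = 0.403) was not called. Orai2, which can join Orai1 in mixed channels and is known to damp their current, measured 51.8, 47.8 and 55.5 in Ctrl and 43.5, 50.7 and 61.6 in CIA. The interval of its log2 fold change, -0.36 to 0.35, leaves room for changes of either sign.

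Among the TRP channels, Trpv2, a calcium-permeable channel of immune cells, measured 18.1, 19.4 and 20.2 rescaled FPKM in Ctrl and 24.9, 25.3 and 23.4 in CIA. All CIA libraries were above all Ctrl libraries, with 1.27 times the Ctrl mean and a log2 fold change of 0.35 (SE 0.12, adjusted p = 0.204). Trpm7, a magnesium- and calcium-permeable channel fused to a kinase, measured 5.11, 3.91 and 5.65 in Ctrl and 3.39, 2.69 and 3.28 in CIA, again without overlap. Its log2 fold change of -0.62 (SE 0.24, adjusted p = 0.251) lost its call in 4 of the 6 fits that left out 1 library, namely Ctrl replicate 1 or 3 or CIA replicate 2 or 3, at log2 fold changes from -0.66 to -0.51, and also with FPKM as deposited, at -0.59. It passed the fold limit without Ctrl replicate 2 (-0.77) or CIA replicate 1 (-0.68). Trpm2, the channel opened by ADP-ribose during oxidative stress, measured 36.9, 24.0 and 38.9 in Ctrl and 26.7, 32.5 and 32.4 in CIA. Ctrl replicate 2 was below all CIA libraries and the other Ctrl libraries were above them, and the adjusted p was 0.841.

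Itpr1, the type 1 IP3 receptor, measured 3.13, 2.47 and 3.77 rescaled FPKM in Ctrl and 3.88, 2.95 and 3.61 in CIA (log2 fold change 0.16, 95% confidence interval -0.46 to 0.78, adjusted p = 0.795). Piezo1, the stretch-gated channel of red cells and leukocytes, measured 7.14, 5.79 and 6.70 in Ctrl and 5.70, 7.12 and 7.00 in CIA (log2 fold change 0.013, 95% confidence interval -0.43 to 0.45, adjusted p = 0.986). Both genes overlapped between the groups. Piezo1 shares 2441 exon bases with Ctu2 on the opposite strand, and Ctu2 had a mean of 9.35 rescaled FPKM. Whether reads were counted by strand is not given in the sources used here, so the Piezo1 level may include reads of Ctu2.

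**Figure D2:**
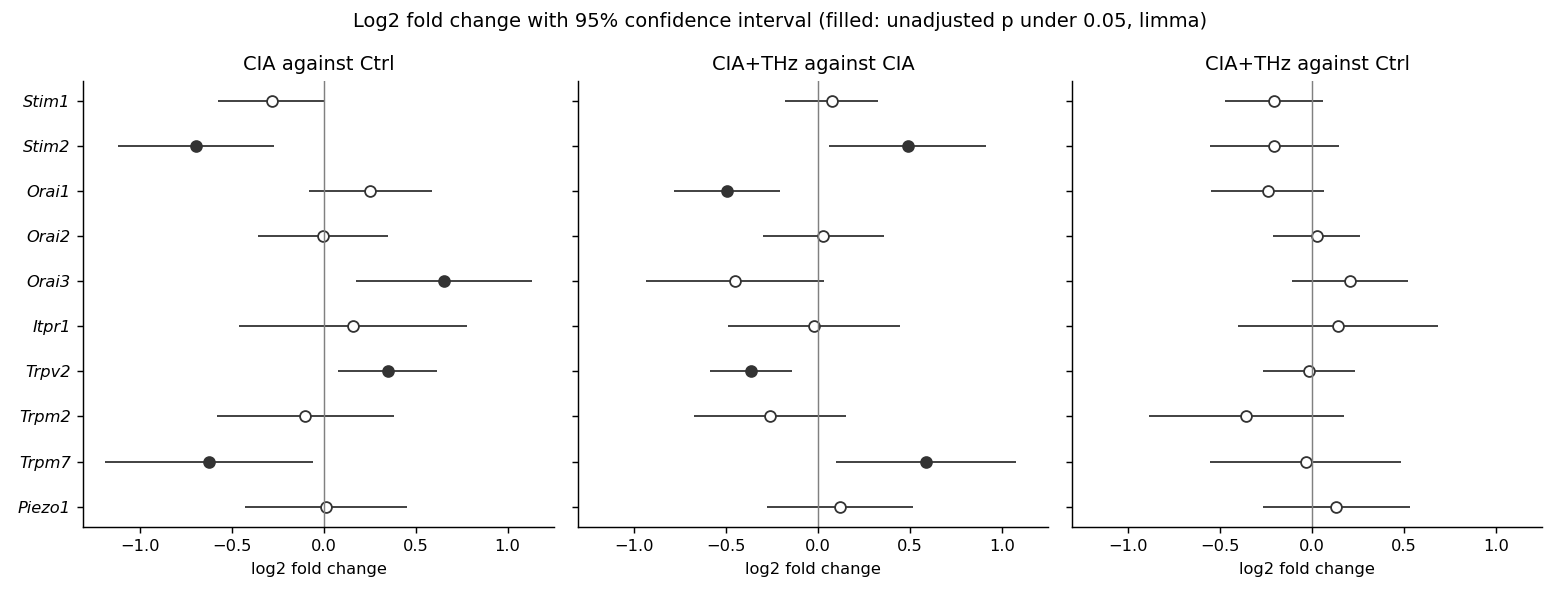
Log2 fold change (x axis) of each gene (y axis) in the 3 comparisons, with its 95% confidence interval as a line and filled points where limma called the gene. There are 4 filled points in each of the comparisons that involve the CIA group and 0 in the other.

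The comparison of CIA+THz with CIA asks how irradiation of the arthritic joint relates to the same transcripts. Stim2 and Trpm7 were higher in CIA+THz, and Orai1 and Trpv2 were lower. These 4 of the 10 genes had p under 0.05, 2 higher and 2 lower, against 5.89% of all genes higher and 7.33% lower. None passed the fold limit as well, where 4.54% of all genes did. The same 4 genes were those without overlap between the groups, against 19.6% of all genes. The median absolute log2 fold change was 0.31 over the 10 genes and 0.26 over all genes. The smallest adjusted p was 0.226, and over all genes tested limma gave 0 with an adjusted p under 0.05 in this comparison, where 1634 had p under 0.05. This comparison and that of CIA with Ctrl use the same 3 CIA libraries, so opposite signs in them are not independent observations.

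Orai1 measured 14.9, 13.9 and 12.7 rescaled FPKM in CIA+THz, below all of the CIA libraries given above. The mean was 13.8 ± 1.07 (SD, n = 3) against 19.6 ± 1.81 (SD, n = 3), a log2 fold change of -0.50 (SE 0.12, adjusted p = 0.226). Trpv2 measured 20.0, 18.6 and 18.5 in CIA+THz, also below every CIA library. Its log2 fold change was -0.36 (SE 0.093, adjusted p = 0.236). Orai3 measured 9.89, 11.9 and 11.9 in CIA+THz and overlapped CIA through CIA replicate 3 at 11.7. Its log2 fold change was -0.45 (95% confidence interval -0.93 to 0.032, adjusted p = 0.404), and it was not called. It was called without CIA replicate 3, at -0.64, and at the same -0.45 with all 9 libraries in 1 fit.

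Stim2 measured 11.5, 9.997 and 13.2 rescaled FPKM in CIA+THz, each above every CIA library, the nearest of which was CIA replicate 2 at 9.80. Its log2 fold change was 0.49 (SE 0.18, adjusted p = 0.326). The call was lost without CIA replicate 1 (0.37), CIA replicate 3 (0.48), CIA+THz replicate 1 (0.49) or CIA+THz replicate 3 (0.39), the values being log2 fold changes. Trpm7 measured 4.16, 5.70 and 4.41 in CIA+THz, all above CIA, with 1.52 times the CIA mean and a log2 fold change of 0.59 (SE 0.21, adjusted p = 0.314). Its call was lost without CIA replicate 2 (0.49) or CIA+THz replicate 2 (0.45). Without CIA+THz replicate 1 it was just past the fold limit, at 0.674. Stim1 measured 18.8, 20.1 and 17.4 in CIA+THz and overlapped CIA, at a log2 fold change of 0.075 (95% confidence interval -0.18 to 0.33, adjusted p = 0.794).

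The remaining genes overlapped between CIA+THz and CIA. Orai2 measured 54.4, 49.3 and 54.0 rescaled FPKM in CIA+THz (log2 fold change 0.030, 95% confidence interval -0.30 to 0.36, adjusted p = 0.953). Trpm2 measured 27.4, 19.9 and 29.9, with the lowest value of all 9 libraries in CIA+THz replicate 2 (log2 fold change -0.26, adjusted p = 0.555). Itpr1 measured 3.12, 3.45 and 3.65 (log2 fold change -0.022, adjusted p = 0.979), and Piezo1 measured 6.73, 8.25 and 6.56 (log2 fold change 0.12, adjusted p = 0.793). Their 95% confidence intervals ran from -0.49 to 0.44 and from -0.28 to 0.51 on the log2 scale, so differences of that size in either direction remain possible.

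The size of these differences from CIA, and which genes are called, depends on how the libraries are scaled. The rescaling factors of the CIA+THz libraries were higher than those of the CIA libraries by 0.28 on the log2 scale and than those of the Ctrl libraries by 0.31, while CIA and Ctrl differed by 0.030. With FPKM as deposited, the log2 fold change of CIA+THz against CIA was 0.76 for Stim2, 0.86 for Trpm7 and 0.35 for Stim1, all called. In the same values Orai1 was at -0.22, Trpv2 at -0.088 and Orai3 at -0.18, none of them called. Thus 3 genes were called, all higher, in place of 2 higher and 2 lower. Of all genes past both limits after rescaling 64.7% were higher, and of those past both limits as deposited 94.5% were higher. The 14 ubiquitous genes, such as Actb and Gapdh, had a median log2 fold change of -0.16 in CIA+THz against CIA after rescaling, with 13 of 14 lower, and of 0.19 in CIA against Ctrl, with 11 of 14 higher. Which scaling is nearer to the RNA content of the samples was not tested.

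**Figure D3:**
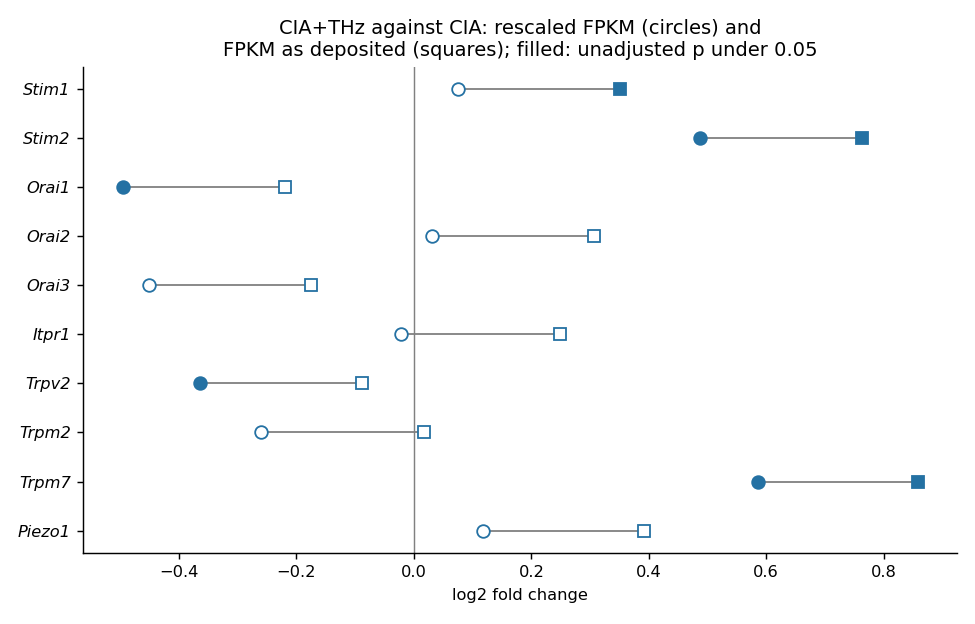
Log2 fold change of CIA+THz against CIA (x axis) for each gene (y axis), from rescaled FPKM (circles) and from FPKM as deposited (squares), filled where called by limma. Each gene sits higher as deposited, Stim2 and Trpm7 are filled on both scales, and Orai1 and Trpv2 are filled only after rescaling.

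The comparison of CIA+THz with Ctrl asks what still separates irradiated arthritic mice from control mice. None of the 10 genes had p under 0.05 by limma, where 8.39% of all genes were higher and 9.69% lower at that p and 7.88% passed the fold limit as well. Of the genes past both limits after rescaling 58.9% were higher, and of those past both limits as deposited 93.0% were higher. The smallest adjusted p was 0.374, for Orai1. Only Stim1 did not overlap, with 20.1 as the highest CIA+THz library and 20.3 as the lowest Ctrl library, against 24.0% of all genes without overlap. The intervals still allow differences: that of Trpm2 ran from -0.89 to 0.17 on the log2 scale, that of Trpm7 from -0.55 to 0.48 and that of Stim2 from -0.56 to 0.14. Trpm2 had a log2 fold change of -0.58, with a call, without Ctrl replicate 2, the low Ctrl library named above. With FPKM as deposited Orai3 was higher in CIA+THz by 0.51 on the log2 scale, also with a call.

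Ratios between related genes within a library do not depend on its scaling factor, apart from the pseudocount of 0.1. The 7 ratios were compared in all 3 pairs of groups by a two-sided exact permutation test, whose smallest p with 3 against 3 libraries is 0.1, so that none of the 21 comparisons could reach 0.05. In 5 of them the groups did not overlap, each at exact p = 0.1 and adjusted p = 0.323 over the 21. Among single genes, 19.6% to 24.0% had no overlap, depending on the groups compared. The share over other pairs of genes was not computed, so 5 of 21 cannot be read as more than usual. The log2 ratio of Orai1 to Orai2 was -1.87, -1.81 and -2.08 in the CIA+THz libraries against -1.31, -1.29 and -1.58 in CIA and -1.50, -1.69 and -1.77 in Ctrl. The ratio was lower in every CIA+THz library than in any other library, by a difference of -0.53 (SE 0.12) from CIA and of -0.27 (SE 0.11) from Ctrl. The log2 ratio of Trpm2 to Trpm7 was 2.94, 3.54 and 3.27 in CIA against 2.83, 2.59 and 2.76 in Ctrl, a difference of 0.52 (SE 0.19), and was 2.69, 1.79 and 2.74 in CIA+THz, a difference of -0.85 (SE 0.35) from CIA. Stim2 against Stim1 was at -1.36, -0.93 and -1.05 in CIA and at -0.46, -0.90 and -0.75 in Ctrl, a difference of -0.41 (SE 0.18). CIA replicate 2 and Ctrl replicate 2 were nearly level in this ratio.

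The other ratios overlapped in every comparison. Orai1 was 1.93, 1.48 and 1.69 times Orai3 in the Ctrl libraries and 1.12, 1.05 and 1.76 times Orai3 in CIA, where replicate 3 stood with the Ctrl libraries. Itpr1 was the least abundant IP3 receptor gene: it was 0.156, 0.0978 and 0.135 times Itpr2 in Ctrl and 0.214, 0.142 and 0.283 times Itpr2 in CIA. Against Itpr3 it was 0.342, 0.249 and 0.287 in Ctrl and 0.453, 0.286 and 0.370 in CIA.

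**Figure D4:**
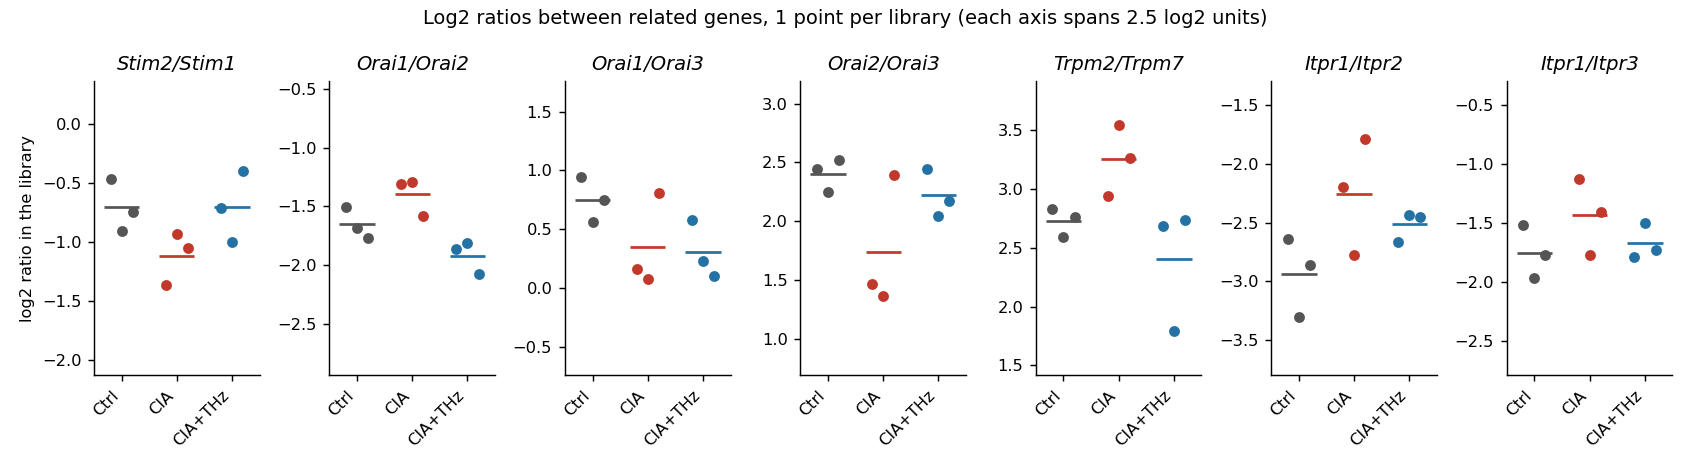
Log2 ratio of the rescaled FPKM of related genes (y axis, each spanning the same number of log2 units) in each library, by group (x axis), with a line at the group mean. The Orai1 to Orai2 ratio is lowest in the CIA+THz libraries, at -2.08 to -1.81, and the Trpm2 to Trpm7 ratio is highest in CIA, at 2.94 to 3.54.

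Beyond these channels, 135 symbols in 8 lists of calcium signalling genes were examined, of which 131 were in the table and 97 were tested. Across the 3 groups 25 of the 97 had p under 0.05, beside the 21.3% of all genes, and 2 had an adjusted p under 0.05, Slc8b1 and Kcnj2. In the CIA mice 8 were called as higher and 14 as lower than in Ctrl, beside 8.85% and 8.45% of all genes. The irradiated mice had 5 called as higher and 6 as lower than in CIA, beside 5.89% and 7.33% of all genes. Set against Ctrl they had 10 as higher and 9 as lower, beside 8.39% and 9.69%. The counts of the single lists that follow are to be read against these same shares. The medians of their log2 fold changes were 0.032, 0.017 and 0.057 in that order, against -0.0051, 0.025 and 0.039 over all genes. Without Ctrl replicate 1, Ctrl replicate 2 or CIA+THz replicate 2 the count of 25 was 15 in each case.

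Of 10 tested regulators of store-operated entry, 3 were lower in CIA than in Ctrl at p under 0.05 and none higher. Over all genes 8.45% were lower and 8.85% higher. The irradiated group had 2 higher and none lower than CIA, beside 5.89% and 7.33% of all genes. Esyt2, which ties the endoplasmic reticulum to the plasma membrane, had means of 14.6, 9.10 and 11.9 rescaled FPKM in Ctrl, CIA and CIA+THz. Its log2 fold change was -0.68 in CIA against Ctrl (adjusted p = 0.113) and 0.38 in CIA+THz against CIA (adjusted p = 0.301), both called. Tespa1, a lymphocyte protein that binds IP3 receptors, had means of 1.84, 0.853 and 1.54, with -1.03 (adjusted p = 0.225) and 0.80 (adjusted p = 0.337), both called. Saraf, which turns store-operated entry off, had means of 29.0, 23.0 and 24.5, with a called -0.33 (adjusted p = 0.214) in CIA against Ctrl and 0.089 (adjusted p = 0.727) in CIA+THz against CIA.

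Of 18 tested genes of IP3 production and store release, 2 were higher and 1 lower in CIA at p under 0.05. Over all genes 8.85% were higher and 8.45% lower, which is near these counts. The irradiated group had 0 higher and 2 lower than CIA, beside 5.89% and 7.33% of all genes. Plcg2, the phospholipase C of B cells and myeloid cells, had means of 18.1, 28.3 and 22.2 rescaled FPKM in the 3 groups, with a log2 fold change of 0.63 in CIA (adjusted p = 0.112). Plcb3, a phospholipase C of G protein-coupled receptors, had means of 2.76, 4.79 and 3.14, with 0.76 in CIA (adjusted p = 0.197) and -0.58 in CIA+THz against CIA (adjusted p = 0.329), both called. Inpp5a, which degrades IP3, had means of 12.6, 13.6 and 9.74, with a called -0.47 in CIA+THz against CIA (adjusted p = 0.287). Itpr2, the most abundant IP3 receptor gene here, had means of 24.4, 17.2 and 19.9, with a called -0.52 in CIA (adjusted p = 0.281), and Itpr3 had means of 10.7, 9.52 and 11.1 with an adjusted p of 0.680 across the groups.

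The list of calcium pumps and exchangers also holds Tmco1 and Tmbim6, which are of neither kind. Of its 10 tested genes, 2 were higher and 1 lower in CIA at p under 0.05, beside 8.85% and 8.45% of all genes. Slc8b1 and Tmbim6 were the 2 lower in CIA+THz against CIA, beside 7.33% of all genes. Slc8b1, the sodium-calcium exchanger of mitochondria, had means of 4.45, 10.5 and 7.28 rescaled FPKM, with a log2 fold change of 1.24 in CIA (SE 0.23, adjusted p = 0.0700) and -0.53 in CIA+THz against CIA (adjusted p = 0.301). Across the 3 groups its adjusted p was 0.0350. Slc8a1, the plasma membrane sodium-calcium exchanger, had means of 1.20, 2.98 and 2.57, with a called 1.20 in CIA (adjusted p = 0.206). Atp2c1, the calcium and manganese pump of the Golgi, had means of 27.8, 20.8 and 21.6, with a called -0.41 in CIA (adjusted p = 0.229). Of 8 tested genes of mitochondrial calcium uptake, 1 was lower in CIA, Micu3, a gatekeeper of the uniporter, which ranged from 0.538 to 1.41 in Ctrl and from 0 to 0.516 in CIA.

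Of 20 tested genes of calcineurin, NFAT and calmodulin, 2 were higher and 2 lower in CIA at p under 0.05. Over all genes 8.85% were higher and 8.45% lower, which is near these counts. The irradiated group had 2 higher and 1 lower than CIA, beside 5.89% and 7.33% of all genes. The 2 higher in CIA were Camkk1, at a log2 fold change of 1.17 (adjusted p = 0.204), and Camkk2, at 0.72 (adjusted p = 0.272). Camkk1 was also the 1 lower in CIA+THz against CIA, at -0.68 (adjusted p = 0.265). Nfatc3, an NFAT factor of lymphocytes, had means of 35.1, 27.0 and 35.9 rescaled FPKM, with a log2 fold change of -0.38 in CIA (adjusted p = 0.193) and 0.41 in CIA+THz against CIA (adjusted p = 0.236), both called. Ppp3cc, a calcineurin catalytic subunit, had means of 7.63, 5.26 and 9.59, with -0.55 in CIA (adjusted p = 0.323) and a called 0.87 in CIA+THz against CIA (adjusted p = 0.251). Calm2, 1 of the 3 genes for the calcium sensor calmodulin, had means of 266, 196 and 177, with a called -0.45 in CIA (adjusted p = 0.156) and -0.15 in CIA+THz against CIA (adjusted p = 0.641).

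Among the other channels, 9 further TRP and mucolipin genes were tested. At p under 0.05, 2 were lower in CIA and 1 was higher in CIA+THz against CIA. Over all genes 8.85% were higher and 8.45% lower in CIA, and 5.89% and 7.33% in CIA+THz against CIA. Trpc1 had means of 2.29, 0.821 and 0.667 rescaled FPKM (-1.29 in CIA, adjusted p = 0.262), and the endolysosomal channel Mcoln3 ranged from 0.365 to 1.13 in Ctrl, from 0 to 0.448 in CIA and from 0.189 to 2.70 in CIA+THz. Of 12 further genes listed as mechanosensitive or volume-regulated channels, 1 was lower in CIA and 0 passed in CIA+THz against CIA. Piezo2, the other Piezo channel, was listed at 0 in all 9 libraries, and Tmc6 had means of 20.8, 25.7 and 26.1 with a call and an adjusted p of 0.220 across the groups. Of 10 other leukocyte and red cell channels, 2 were higher and 3 lower in CIA, and 1 was lower in CIA+THz against CIA. Kcnj2, an inward rectifier potassium channel, had means of 61.6, 30.3 and 31.3, with a called -1.02 in CIA (adjusted p = 0.0616) and 0.060 in CIA+THz against CIA (adjusted p = 0.873). The ATP-gated channels P2rx7 and P2rx4 had log2 fold changes of 1.14 (adjusted p = 0.216) and 0.55 (adjusted p = 0.256) in CIA, both called.

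**Figure D5:**
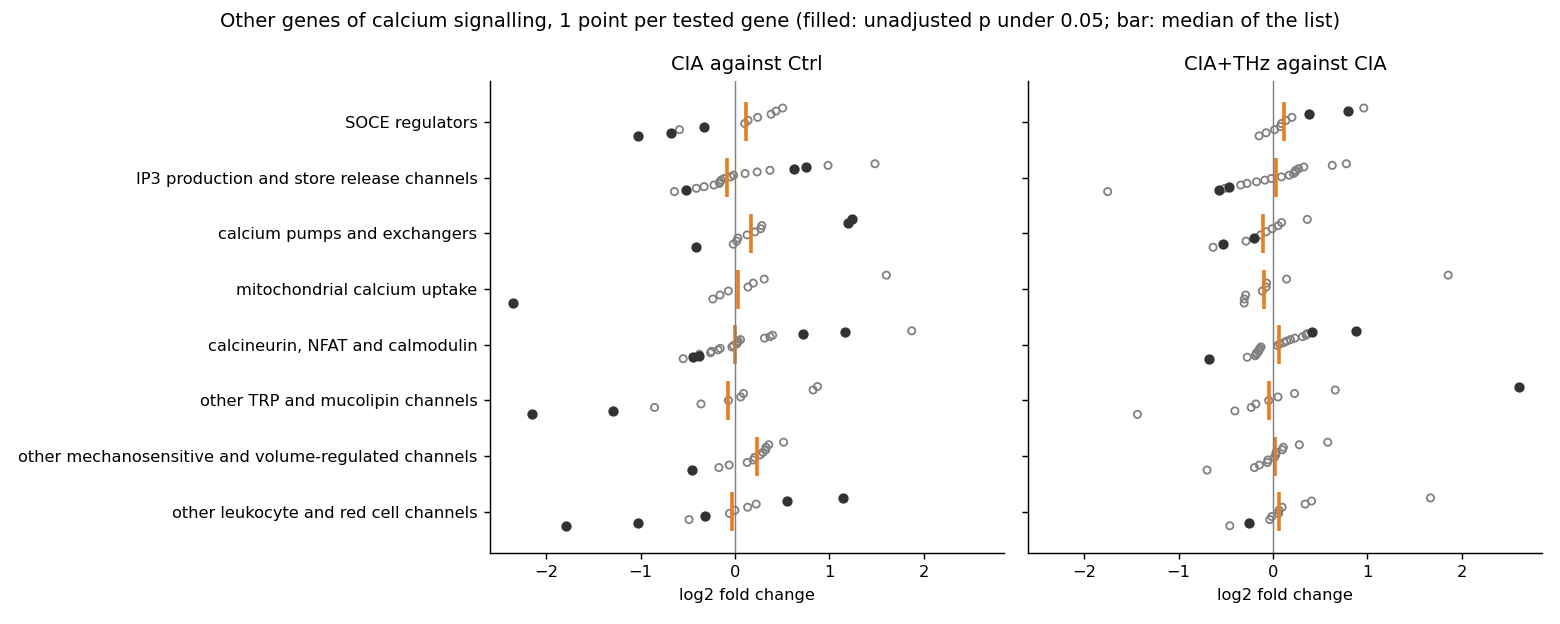
Log2 fold change (x axis) of each tested gene of the 8 lists (y axis) in CIA against Ctrl (left) and CIA+THz against CIA (right), filled where called by limma, with a bar at the median of each list. All medians lie between -0.10 and 0.24.

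Markers of blood cell types also differed between the groups, including CIA+THz and Ctrl, where none of the 10 genes was called. Neutrophil, platelet and erythroid markers were present in every library, and no marker of the 10 lists was at 0 in all libraries. In CIA against Ctrl all 12 monocyte markers were higher, 8 at p under 0.05, and their summed level was 976 to 1109 rescaled FPKM against 659 to 669. All 14 T cell markers were lower, 5 at p under 0.05, with sums of 320 to 350 against 387 to 446, and 7 of 8 NK cell markers were lower, 4 at p under 0.05, with sums of 69.5 to 145 against 162 to 211. Of 8 plasma cell markers 7 were lower, with sums of 57.3 to 64.3 against 116 to 140. Of the neutrophil markers 9 of 12 were lower, 4 at p under 0.05, but the sums overlapped, at 14857 to 19288 against 13108 to 21871. Of the erythroid markers 9 of 10 were lower, 1 at p under 0.05. Their sums also overlapped, at 97700 to 110991 against 79295 to 122649, and the mean sum was not lower in CIA (102364 against 101228). These lists moved beside the lower Stim2 and Trpm7 and the higher Orai3 and Trpv2, and their part in those results was not tested.

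Between CIA+THz and CIA, each of the 14 T cell markers was higher, 8 at p under 0.05, with sums of 387 to 515 rescaled FPKM, and 7 of 8 NK cell markers were higher, 2 at p under 0.05. All 12 neutrophil markers were lower, 10 at p under 0.05, with sums of 11026 to 12585 against 14857 to 19288, and 8 of 12 monocyte markers were lower, 6 at p under 0.05, with sums of 806 to 865. Of the erythroid markers 8 of 10 were lower, with none at p under 0.05 and sums of 54249 to 75256 against 97700 to 110991, and 8 of 9 platelet markers were lower, 5 at p under 0.05, with sums of 3372 to 4106 against 4040 to 5058. B cell sums were 592 to 771 in CIA+THz, 514 to 653 in CIA and 440 to 548 in Ctrl, and those of eosinophils and basophils were 56.0 to 64.6, 43.9 to 59.0 and 51.9 to 62.6. The part of these shifts in the higher Stim2 and Trpm7 and the lower Orai1 and Trpv2 was not tested. Against Ctrl, 11 of 12 neutrophil markers were lower in CIA+THz, 9 at p under 0.05, and 10 of 10 erythroid markers were lower, 5 at that p. Of 12 monocyte markers 10 were higher, 9 at p under 0.05, and of 10 B cell markers 9 were higher, 8 at that p. T cell markers were split there, with 8 higher and 6 lower. None of the 10 channel genes was called in that comparison.

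The libraries also differed in how many genes were detected. The number of genes above 0, which rises with depth, was 11816 to 12264 in the Ctrl libraries, 11801 to 12066 in CIA and 12449 to 12807 in CIA+THz. The CIA+THz libraries thus stood apart in this number, and it cannot be told apart from irradiation. Alas2 alone held 14.4% to 16.7% of the summed FPKM in Ctrl and CIA and 11.4% to 14.0% in CIA+THz. Correlations between libraries across genes on the log2 scale were 0.934 to 0.963 within groups and 0.923 to 0.957 between groups.

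For the 5 genes with p under 0.05 across the groups, the profile over the 9 libraries was compared with those of 9747 genes with a mean of at least 1 rescaled FPKM, by the root mean square difference of log2 levels centered on each gene's mean. This ranks likeness of pattern and says nothing of shared control. Nearest to Stim2 were Ash1l, a histone methyltransferase, at 0.110, and Slc16a6, a solute carrier, at 0.137. Ash1l had means of 12.5, 7.99 and 11.7 in Ctrl, CIA and CIA+THz. Nearest to Trpm7 were Lysmd1 at 0.113 and the nuclear receptor gene Nr1d2 at 0.121, the latter with means of 6.21, 3.75 and 5.97. Nearest to Trpv2 were the sulfotransferase gene Chst12 at 0.0649 and the focal adhesion gene Tgfb1i1 at 0.0675, and Chst12 had means of 51.2, 69.2 and 50.8. Nearest to Orai1 were Pi16 at 0.0628 and Zbtb42 at 0.0812, and nearest to Orai3 were the actin-capping gene Capg at 0.0955 and the tubulin cofactor gene Tbcb at 0.112. Capg had means of 40.0, 61.8 and 44.6.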

How the data were processed

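Blood RNA of 9 mice was sequenced, and the authors deposited FPKM values per gene symbol, 1 column per library. The submitters' processing notes name bcl2fastq 2.0, HISAT2, StringTie, DESeq2 and mm10 without their roles, and annotation, strand and filters are not given in the sources used here. Each deposited FPKM column was divided by 1 factor, the median ratio to the geometric mean of the 9 libraries for the 10312 genes that none of them lists at 0. The log2(rescaled FPKM + 0.1) of 12366 genes with a mean of at least 0.1 was fitted in R 4.3.3 with limma 3.58.1 (eBayes, trended prior variance), on all 9 libraries for the test across groups and on 6 for each pair of groups. Adjusted p-values are Benjamini-Hochberg. The fit was tested on simulated data.

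The genes and lists were chosen with earlier results of these data known, and 4 of the genes had been seen in a supplementary table of the study, of which no value is used. All 10 genes were described. Of each list, up to 3 genes with the smallest p under 0.05 across the groups were named, with Itpr2, Itpr3 and Piezo2 in any case. Tmbim6, Camkk1 and Camkk2 were added to identify genes counted as called. For each of the 10 at p under 0.05 across the groups, the 2 genes of most similar profile were named.

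Absolute depth is not in the file. The spacing of low FPKM values fixes the relative depth of libraries only up to simple whole-number factors and not its direction, so no depth is given, and the number of genes above 0 stands in its place. Lower depth makes low genes less precise. Libraries that share a replicate number came from different mice. The alternatives were FPKM as deposited, a pseudocount of 1, a minimum mean of 1, no filter, no trend, the replicate number as a block, all 9 libraries in 1 fit, the adjusted p, an analysis of variance on linear values (for the count over all genes) and leaving out each library. For the lists, these were added after the data were seen.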

Additional observations from a re-analysis of the deposited data

How the results depend on the processing

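Of 390 refits of the log2 fold changes between groups, 337 kept their direction and their side of p under 0.05. Of 150 refits of the test across the groups, 139 kept their side of p under 0.05. With FPKM as deposited, the sign turned in CIA+THz against Ctrl for Stim1 (0.098), Stim2 (0.098), Orai1 (0.063), Trpv2 (0.29) and Trpm7 (0.26), in CIA+THz against CIA for Itpr1 (0.25) and Trpm2 (0.017), and in CIA against Ctrl for Orai2 (0.024). Each of these 8 lacked a call before and after, and the values moved by the difference of the scaling factors. Leaving out 1 library turned the sign only of values without a call: Orai2 ranged from -0.14 to 0.11 in CIA against Ctrl, from -0.090 to 0.16 in CIA+THz against CIA and from -0.031 to 0.077 in CIA+THz against Ctrl. Itpr1 ranged from -0.13 to 0.059 against CIA and from -0.014 to 0.28 against Ctrl in the CIA+THz mice, Trpv2 from -0.060 to 0.020 and Trpm7 from -0.19 to 0.074 in CIA+THz against Ctrl, and Trpm2 from -0.32 to 0.030 and Piezo1 from -0.071 to 0.11 in CIA against Ctrl. Without a trend, Trpv2 lost its call in CIA against Ctrl.

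Over all genes, 2629 passed across the groups, against 313 at an adjusted p under 0.05. The study's criterion gave 1118 in CIA against Ctrl and 19 with the adjusted p. In CIA+THz against CIA it gave 561, with 1192 as deposited, 283 with a pseudocount of 1 and 0 with the adjusted p. In CIA+THz against Ctrl it gave 975, with 1716 as deposited, 13 with the adjusted p, and 724 to 1487 when a library was left out, the highest without Ctrl replicate 3. The causes of these changes were not tested.

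Libraries that share a replicate number did not deviate together over all genes, with correlations from -0.0517 to 0.0309 in 9 pairs. The main fits therefore used no pairing, though this check could miss a small effect or one limited to some genes. With the replicate number as a block, the counts over all genes were 2399, 1073, 506 and 967 in the order above, Stim2 and Trpm7 lost their calls in CIA+THz against CIA at unchanged log2 fold changes of 0.49 and 0.59, Trpm7 lost its call across the groups, and Trpm2 gained one in CIA+THz against Ctrl at -0.36. Of 780 refits of the pathway genes, 607 were classed as unchanged in direction and call, where the result had them. These refits did not cover every fold change of the pathway genes and included results without a sign. They therefore cannot show how often signs turn in these lists. A call was lost in 125 of the pathway refits that left out 1 library and in 43 of those with another setting. The calls given above for pathway genes are to be read with that limit. With no filter on low genes Stim1 gained a call in CIA against Ctrl, and with all 9 libraries in 1 fit Stim1 gained one there and Orai3 one in CIA+THz against CIA. Leaving out 1 library turned the sign of 3 differences of log2 ratios, all between overlapping groups, Stim2 to Stim1 in CIA+THz against Ctrl (-0.15 to 0.15), Orai1 to Orai3 in CIA+THz against CIA (-0.18 to 0.19) and Itpr1 to Itpr3 in CIA+THz against Ctrl (-0.025 to 0.20). The depth of the libraries is not known, so its limit on low genes cannot be given.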
